A study of Mus musculus with 8 samples.

Results

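The data are the baseline transcriptome of mouse embryonic stem (mES) cells that carry a conditional, still intact Trim71 gene. The 4 libraries labelled WT, with the genotype Trimfl/fl, were taken of 8 mRNA-seq libraries in all. The label "WT" thus stands for cells with loxP sites around the last exon of both Trim71 alleles, not for cells without an engineered allele. Per the study's methods they were derived from blastocysts of C57BL/6 mice that also carried Rosa26-CreERT2, a Cre recombinase expressed from a ubiquitous locus and held inactive until 4-hydroxytamoxifen is given. The methods name DMSO as the solvent control for cells that were not induced, and the labels do not say whether these libraries received it. All cells were grown in serum with LIF, sorted for the surface antigen SSEA-1 before harvest and labelled male. The libraries came from 2 clones: WT1 (day 1) and WT4 (day 5) from clone 1, and WT2 (day 3) and WT3 (day 4) from clone E3. What the day counts from is not stated, each clone is a single line, and nothing says whether the libraries of a clone were separate cultures, so the spread between them may be partly technical. Clone and day cannot be told apart, since no day was sampled in both clones.

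ES cells derive from the inner cells of the early embryo at the blastocyst stage. They divide quickly and keep the ability to form all lineages of the embryo through a network of transcription factors around Oct4 (Pou5f1), Sox2 and Nanog. In serum with LIF the cultures are a mixture: most cells are in a naive state close to the inner cell mass, while some approach the formative state, which precedes lineage commitment, or start to differentiate, often towards primitive endoderm. Trim71, also called Lin41, is an RNA-binding protein with a RING domain and a target of the let-7 microRNAs, which accumulate as cells differentiate.

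The values describe 13558 transcripts and are normalized read counts after a correction that the authors made. The study's methods call it a batch correction and do not name the batch. Its form was inferred here from the values, and it follows clone. The correction added 1 amount to the libraries of one clone and subtracted it from those of the other, transcript by transcript, and values under 1 were then set to 1. It was undone here for 13501 transcripts, whose whole reads could be worked out from the values. Values before the correction are called uncorrected below. The recovered reads came to 14439556 in WT1, 7163215 in WT2, 26588568 in WT3 and 9094270 in WT4, so WT3 was sequenced most deeply and WT2 least. No pair of libraries agreed within sampling noise: the chi-square per degree of freedom between their reads was 11.3 or more. Comparisons of level between genes are made per kb of transcript.

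The targeted gene was measured first. In mm10 the gene Trim71 spans 114507133 to 114564369 of chromosome 9 (minus strand). Its deposited level was 2783, 2736, 1988 and 2584 normalized counts in WT1 to WT4, lowest in WT3. Per kb this was 270.3 ± 39.3 (SD, n = 4), rank 4002 of the 13462 transcripts with a known length. Uncorrected values were 3060, 2459, 1711 and 2861, so both clone E3 libraries then lay below both clone 1 libraries. Trim71 was thus a transcript of upper-middle level in these cells.

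A small number of transcripts held much of the summed level. The median transcript had a mean of 355.6 normalized counts, with quartiles at 87.9 and 977. The top 10 transcripts held 3.93% ± 0.07 (SD, n = 4) of the summed level, the top 100 held 15.3% ± 0.36 and the top 1000 held 48.0% ± 0.87. A mean between 1000 and 10000 was reached by 3220 transcripts, which held 61.2% of the summed level, and 108 transcripts above it held 15.9%. The lists overlapped closely between libraries: of the 100 transcripts highest per kb in each, 81 were shared by all 4 and 119 appeared in any. For the top 1000 the numbers were 852 and 1147.

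**Figure D1:**
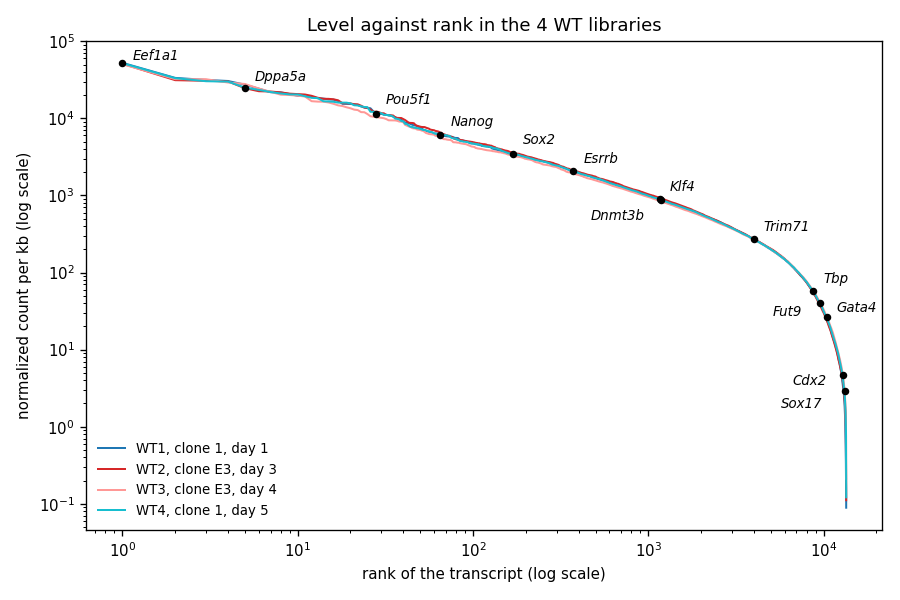
Normalized count per kb (y axis, log scale) against the rank of the transcript (x axis, log scale) in each WT library (lines), with the mean of named genes (black points). The curves of the 4 libraries run close together, from Eef1a1 at rank 1 through Pou5f1 at rank 28 and Trim71 at rank 4002 to lineage markers near the end of the list.

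Protein synthesis and folding led the list. By normalized count the 10 highest transcripts were Eef1a1, Hsp90ab1, Eef2, Hsp90aa1, Hspa8, Gnb2l1, Ncl, Nedd4, Tubb5 and Atp5b. Eef1a1, which brings aminoacyl-tRNA to the ribosome, had 94337, 91906, 90439 and 93332 normalized counts. Its level varied little, with an SD of 0.03 on the log2 scale. Ncl, the nucleolar protein nucleolin, ran from 27102 in WT3 to 49576 in WT2. Among the 10 highest per kb were Eef1a1, Gnb2l1, Hsp90ab1, Rpl8, Dppa5a, Gm12070, Rpl41, Ftl1 and Rpl4. Gnb2l1 (Rack1) is a scaffold protein of the small ribosomal subunit and Ftl1 the light chain of the iron store ferritin. Gm12070 is a predicted gene whose reads may be shared with a near-identical copy, so its level is uncertain. Dppa5a, an RNA-binding protein of pluripotent cells, was the only regulator from the pluripotency list among the 10, at 25097 normalized counts per kb. Its counts were 16938, 9751, 19950 and 15500 in WT1 to WT4, lowest in WT2 and highest in WT3. The precursor of ribosomal RNA, Rn45s, was also listed, with 20004 to 29197 normalized counts.

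Markers of the ES cell state were in the table without exception and most stood high. All 32 pluripotency regulators listed were present, with a median percentile of 89.1 by level per kb, where all transcripts have 50. Of these, 14 were among the highest 10% of all transcripts and 0 in the lowest 25%. Pou5f1, the gene of Oct4 (chromosome 17, 35506018 to 35510772), had 15229, 18726, 12374 and 16311 normalized counts, a mean of 15660 ± 2633 (SD, n = 4) and rank 28 per kb. Nanog ranked 65th, Sox2 170th, Esrrb 374th and Klf4 1168th. The lowest of the list were Nr5a2, an orphan nuclear receptor, and Lifr, the receptor subunit that binds LIF, at 111.2 and 148.6 per kb. The surface markers were uneven. Cdh1 (E-cadherin) and Epcam were at 1451 and 1618 per kb and among the top 10%. Fut9, the fucosyltransferase that makes the SSEA-1 epitope in ES cells, had 651, 462.6, 530.9 and 322.7 normalized counts, rank 9494 per kb. Fut4, a second enzyme with this activity, had 9.68 to 27.4.

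Growth and division genes filled the upper part of the ranking. Median percentiles per kb were 98.0 for 22 translation factors, 97.4 for 77 ribosomal proteins chosen by symbol, 97.4 for 18 subunits of the respiratory chain and ATP synthase, 95.8 for 15 genes of glycolysis and 94.5 for 27 cell cycle genes. Chromatin regulators followed at 92.0 for 20 genes. Of the cell cycle genes 18 were in the top 10%, among them the replication licensing genes Mcm2, Mcm3, Mcm5 and Mcm7. Cyclins of the D type were uneven. Ccnd3 stood at 1954 per kb and Ccnd1 at 470.8, while Ccnd2 stood at 19.8. Cyclin-dependent kinase inhibitors and Rb family genes had a median percentile of 47.3 (9 of 10 listed genes present), led by Cdkn1a (p21) at 424.6 per kb. The p53 targets stood higher, at a median percentile of 78.2 for 14 genes, with Bax at 2325 per kb as the highest.

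Genes of the Lin28 and let-7 axis and of the microRNA machinery, Trim71 among them, had a median percentile of 70.6 for 18 genes. Igf2bp1, an RNA-binding protein of early development, led them at 1302 per kb and Lin28a, which blocks let-7 maturation, followed at 991.8. Lin28b stood at 94.0 and Hmga2, a classical let-7 target, at 66.6. Lin28a had 3963, 4095, 2425 and 3424 normalized counts, with WT3 the lowest, the same library as for Trim71.

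Lineage markers were mostly low or not listed. The table holds only transcripts whose mean reached about 10 in at least 1 genotype, so a marker without a row was low in these libraries too or was not among the annotated transcripts. Of 11 mesoderm markers 5 were listed, all 5 in the lowest 25% per kb. Of 15 neural markers 12 were listed, 7 of them in the lowest 25%. Tubb3 (neuronal tubulin) at 400.0 per kb and the bHLH factor Olig2 at 238.1 were the highest of them. Of 13 genes of the 2-cell-like state 4 were listed, all in the lowest 25%. Fibroblast markers, which feeder cells would bring, were listed for 9 of 16. The collagen genes Col1a1 and Col1a2 had 10.3 to 71.1 and 1 to 18.2 normalized counts and defining fibroblast genes such as Dcn, Lum and Postn had no row, whereas Fn1 (fibronectin, also made by ES cells) stood at 1469, Vim (vimentin) at 576.9 and Tagln at 248.7 per kb. Of 16 endoderm markers 13 were listed, with a median percentile of 22.1. The basement membrane genes Sparc (3758 per kb) and Lamb1 (733.8) were far above the transcription factors Gata4 (26.5), Gata6 (8.53) and Sox17 (2.90). Germ cell genes (11 of 12 listed) had a median percentile of 49.8, with Ddx4 (the helicase Vasa) the highest at 196.4 per kb.

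**Figure D2:**
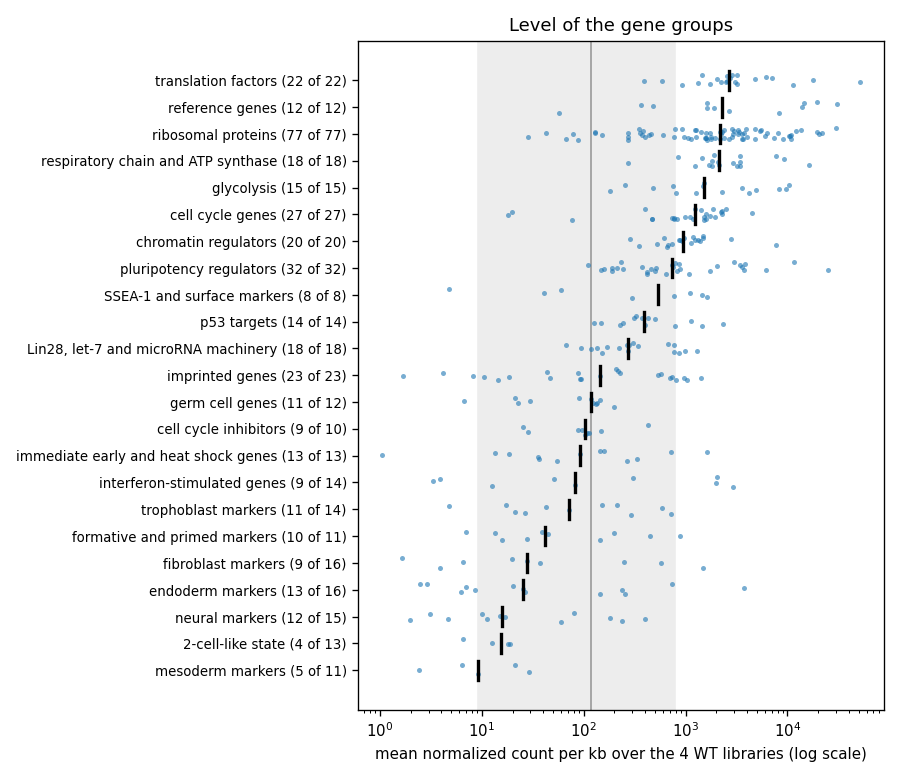
Mean normalized count per kb over the 4 WT libraries (x axis, log scale) of each member (points) of the gene groups (rows, with the number of listed genes that have a row), the group median (black bars), the 10th to 90th percentile of all transcripts (grey band) and their median of 117.7 (grey line). Translation factors have the highest median (2642) and mesoderm markers the lowest (9.10).

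The labelled sex could be set against Y-linked and X-linked transcripts. Of 6 Y-linked genes looked for (Ddx3y, Eif2s3y, Uty, Kdm5d, Usp9y and Zfy1), 0 had a row, and 0 of the annotated transcripts lay on chromosome Y. The mitochondrial chromosome likewise had 0, so Y was not the only chromosome without a row. Xist, the RNA of the inactive X, had 34.5, 68.1, 33.9 and 67.4 normalized counts, rank 13207 per kb. The median level of 491 X-linked transcripts was 0.61, 0.71, 0.61 and 0.61 times that of 12971 autosomal ones in WT1 to WT4. The data thus hold no transcript that marks the Y chromosome in cells labelled male, and why was not tested.

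The spread between the libraries depended strongly on level. The median SD of log2(value + 1) over the 4 libraries was 0.20 (deposited) and 0.22 (uncorrected), and 61.8% of transcripts had an SD under 0.25. For transcripts with a mean under 30, the median coefficient of variation was 35.3% (deposited) and 38.3% (uncorrected). Counting error alone, worked out from the uncorrected reads, would give 25.2%. The deposited spread fell to 10.2% at means of 300 to 1000 and 9.22% from 3000 upwards, and the uncorrected one to 12.15% and 10.45%. At these levels counting error alone would give 4.43% and 1.55%. The spread of low transcripts was thus closer to the counting error than that of high ones.

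**Figure D3:**
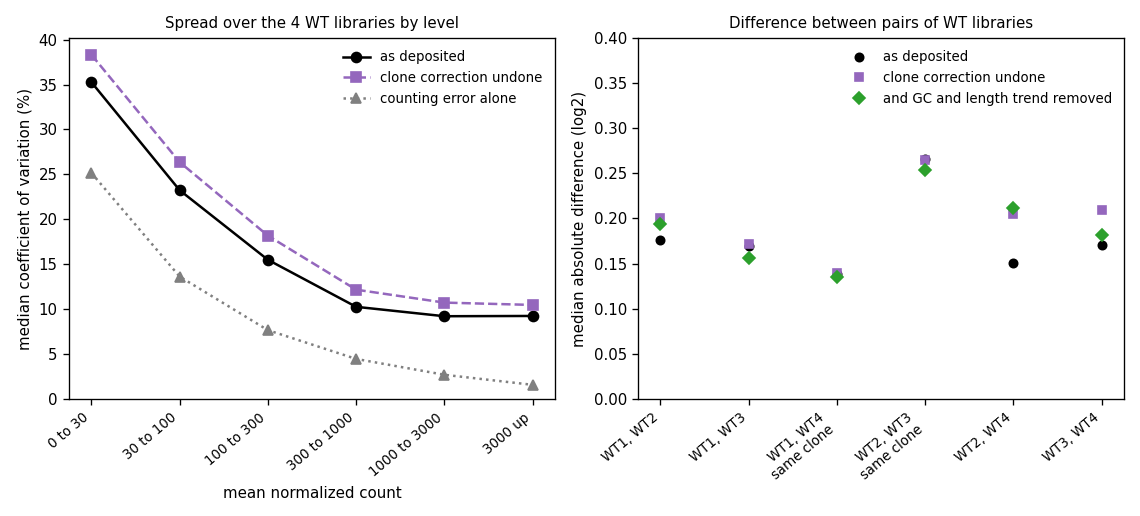
Left, median coefficient of variation (y axis, %) over the 4 WT libraries in classes of mean normalized count (x axis), as deposited, uncorrected, and expected from counting alone. Right, median absolute log2 difference (y axis) for each pair of WT libraries (x axis) over transcripts with a mean log2 level of at least that of 100 counts. The spread falls from 35.3% to 9.22% with level, and the clone E3 pair, WT2 and WT3, differs most in all 3 forms of the data.

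Libraries of the same clone were not always the most alike. Over 9862 well expressed transcripts the clone 1 pair (WT1 and WT4) differed by a median of 0.14 on the log2 scale, the least of the 6 pairs. The clone E3 pair (WT2 and WT3) differed by 0.27, the most. By the share of transcripts that differed more than 2-fold, the clone E3 pair was again the most different (4.38%), but the clone 1 pair (1.49%) was not the closest: the share was 0.58% between WT2 and WT4 and 0.82% between WT3 and WT4. Pearson's r across transcripts was likewise higher for these 2 pairs (0.984 and 0.983) than for the clone 1 pair (0.970). These shares and correlations are of deposited values, and their order turned with the correction. Uncorrected, the share was smallest for the clone 1 pair (1.15%), against 2.40% for WT2 and WT4 and 2.73% for WT3 and WT4. Pearson's r was then 0.981, 0.970 and 0.972 for these pairs, and highest between WT1 and WT3 (0.983). The median differences of uncorrected values were 0.14 for the clone 1 pair and 0.27 for the clone E3 pair, with 0.17 to 0.21 for the 4 pairs across clones. With every library thinned to the reads of the shallowest they were 0.15 and 0.27, and with a trend in GC content and length removed 0.14 and 0.25. The clone E3 pair also holds the shallowest and the deepest library. The deviations of WT3 went with GC content (Spearman rho 0.43 across 11009 transcripts, as a description), against -0.12 in WT2, -0.16 in WT1 and -0.27 in WT4, and those of WT1 with transcript length (0.32). The part of GC content and length in the remaining differences was not tested.

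The first principal component of the uncorrected log2 values held 48.5% of the variance and set WT2 (score 46.8) apart from WT1 (-8.47), WT4 (-12.9) and WT3 (-25.5). The second, with 34.2%, ran from WT3 (-27.9) to WT4 (36.7). In the deposited values the first component (46.6%) instead set WT1 (43.6) apart from WT2 (-27.9), WT4 (-19.8) and WT3 (4.05). Which library looked most different from the others thus changed with the clone correction.

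Formative genes differed most between the libraries of clone E3. Of 10 formative and primed markers listed, 6 had their highest uncorrected value in WT2 and 8 their lowest in WT3. Over all transcripts WT2 was highest in 31.5% and WT3 lowest in 29.0%. The group's median deviation from the mean of the 4 libraries was 0.61 in WT2 and -0.72 in WT3 on the log2 scale, and 0.66 and -0.85 with the GC and length trend removed. Dnmt3b, the de novo DNA methyltransferase of the early embryo, had uncorrected values of 3472, 6219, 2096 and 3366 in WT1 to WT4. Those of Pou3f1 (Oct6), a factor of the formative state, were 103.1, 267.7, 82.8 and 148.1. Lef1, a transcription factor of the Wnt pathway, had 26.8, 102.2, 10.2 and 48.5. In each of the 3 genes WT2 was the highest library and WT3 the lowest. Other markers of the group went another way: Otx2, Dnmt3a and Tcf15 were highest in WT4 and Zic2 in WT1. Tcf15 was lowest in WT2 and Zic2 in WT4. Fgf5 had no row.

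Most pluripotency regulators were highest in WT2 or WT3, as were most transcripts. Of 31 with uncorrected values, 14 were highest in WT2 (31.5% of all transcripts) and 13 in WT3 (28.5%), while 15 were lowest in WT4 (22.8%). Highest in WT3 were Nanog, Sox2, Esrrb, Klf4, Tbx3, Tfcp2l1, Prdm14, Nr5a2, Dppa3, Dppa5a, Utf1, Fgf4 and Tcl1. Among those highest in WT2 were Pou5f1, Klf2, Klf5, Zfp42 (Rex1), Nr0b1, Dppa2, Dppa4, Sall4, Tet2, Dnmt3l, Stat3, Lifr and Gbx2. The uncorrected values of Klf4 were 2393, 2048, 4471 and 1831, and those of Nanog 14546, 10299, 17530 and 11921. In both genes WT3 was the highest library. Dnmt3l, the regulatory partner of the de novo methyltransferases, went the other way, with 4670, 10653, 4427 and 7477.

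Markers of extraembryonic endoderm were highest in WT4. Of 12 endoderm markers with uncorrected values 10 were highest in WT4, against 21.8% of all transcripts, and 11 were lowest in WT1 or WT2. The group's median deviations were -0.49, -0.51, 0.26 and 0.84 in WT1 to WT4, and its summed uncorrected level was 14916, 15445, 17588 and 25114. Col4a1 and Col4a2, the chains of basement membrane collagen, had 788.8, 857.8, 1328 and 3283 and 408.2, 369.9, 757.2 and 1899. The endocytic receptor gene Cubn, a marker of visceral endoderm, ran from 58.7 in WT1 to 542.6 in WT4. The transcription factor gene Gata6, which drives primitive endoderm, had 15.1, 14.1, 27.4 and 38.0, from 18, 8, 62 and 29 reads. In the deposited values the group's median deviations were instead -1.20, 0.45, 0.69 and 0.24, so by this measure WT4 was highest only with the correction undone. The summed deposited level per kb was 3309, 5717, 5857 and 6015, still highest in WT4. Of 11 trophoblast markers 6 were highest in WT4, among them the keratin gene Krt18 with 579.2, 826.1, 591.3 and 1410. Markers of other cell types moved with them. Of 9 fibroblast markers 6 were highest in WT4 and 0 lowest there, with a median deviation of 0.42, and of 5 mesoderm markers 3 were highest in WT4, with 0.41. Their part in the endoderm result was not tested. SSEA-1 sorting preceded lysis in all libraries, and the share of SSEA-1 negative cells after the sort is not given. In bulk RNA, more cells of a type and more RNA per cell cannot be told apart.

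Targets of p53 lay higher in WT3 and WT4 than in WT1 and WT2. Of 14, 8 had their highest uncorrected value in WT4 (21.8% of all transcripts) and 9 their lowest in WT2 (31.5%). The median deviations were -0.16, -0.39, 0.20 and 0.29 uncorrected, -0.16, -0.40, 0.28 and 0.22 once the trend in GC and length was taken out, and -0.33, -0.10, 0.42 and 0.03 as deposited. WT3 was thus the highest library in the latter 2 forms of the data. Mdm2, the ligase that removes p53, had uncorrected values of 3013, 2621, 3609 and 4822. Cdkn1a had 640.4, 509, 1096 and 1004, with both values of days 4 and 5 above those of days 1 and 3. The cell cycle genes varied far less, with a median SD of 0.16.

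**Figure D4:**
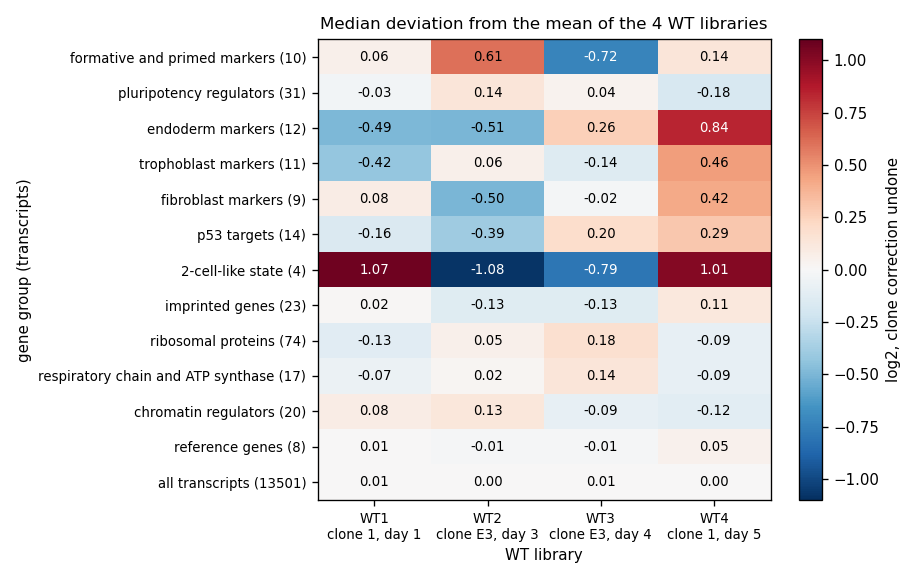
Median deviation of gene groups (rows, with the number of transcripts that have uncorrected values) from the mean of the 4 WT libraries (columns), on the log2 scale with the clone correction undone, printed in each cell and coloured from blue (lower) to red (higher). Formative markers go from 0.61 in WT2 to -0.72 in WT3, endoderm markers reach 0.84 in WT4, and all transcripts stay within 0.01 of 0.

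Some transcripts hardly differed between the libraries. Among the 9911 transcripts whose mean reached 100 and that had no value at the floor, the smallest SDs were those of Armc1, Sars2, Bag4, Dmwd and Alkbh5, at 0.004 to 0.009 on the log2 scale. Armc1 had 1053, 1056, 1056 and 1051 normalized counts. For Sars2, a mitochondrial seryl-tRNA synthetase, the deposited values of 574.8 to 579.3 came from uncorrected ones of 519.7, 637.6, 637.7 and 516.4, so its evenness was that of the corrected values. Subunits of the respiratory chain and ATP synthase had the smallest median SD of the groups, 0.07 deposited and 0.11 uncorrected. Commonly used reference genes were uneven. Hprt had 2069 to 2213 and Gapdh 11155 to 12398 normalized counts, whereas Actb ran from 19910 in WT3 to 32963 in WT2. B2m, the light chain of class I major histocompatibility complexes, had 120.1, 232.3, 343.3 and 548.2, highest in WT4. Its uncorrected values were 206.2, 146.2, 257.1 and 634.3, so the lowest library changed from WT1 to WT2.

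The most variable transcripts showed how far the clone correction shaped the spread. Of transcripts whose mean reached 100 and that had no value at the floor, the 10 with the largest SD included Egfr, Loxl2, Amot, S100a13, Lcp1, S100a6, Pdgfc, Ccnd2 and Krt7, with SDs of 1.45 to 2.24. Egfr, the receptor of epidermal growth factor, had deposited values of 6.74, 134.8, 156.4 and 219.2, so that WT1 seemed to lack it. Uncorrected values were 74.6, 66.9, 88.5 and 287.0: WT1 lay between both clone E3 libraries, and WT4 was the highest. Loxl2, a lysyl oxidase that crosslinks collagen, changed in the same way, from 11.9, 194.4, 169.7 and 170.8 to 100.6, 105.7, 81.0 and 259.5. In both genes the correction had lowered WT1 and WT4 by the same amount.

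**Figure D5:**
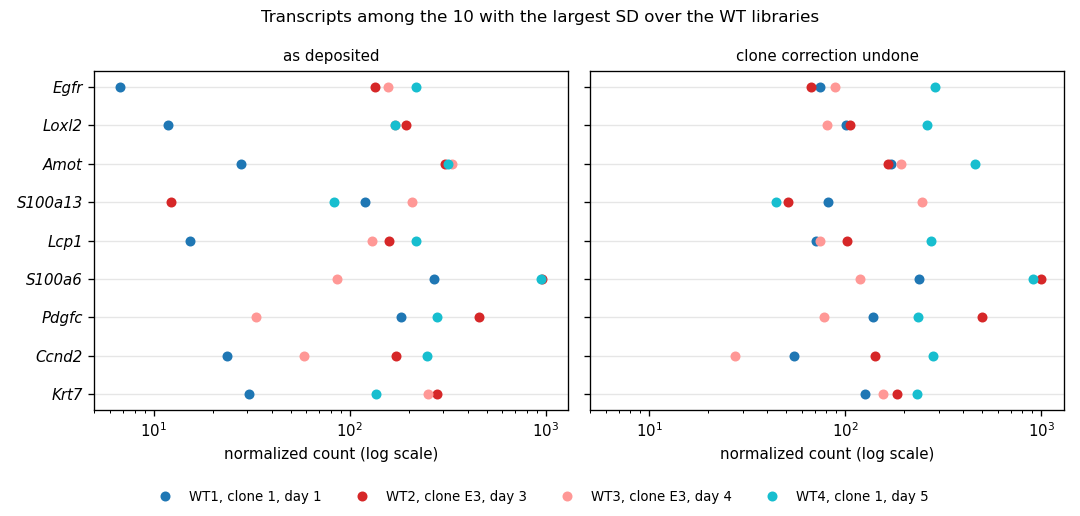
Normalized count (x axis, log scale) of transcripts among the 10 with the largest SD, within these limits (rows) in each WT library (coloured points), as deposited (left) and with the clone correction undone (right). Egfr in WT1 lies at 6.74 on the left and at 74.6 on the right.

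The floor of 1 was reached by 105 transcripts in WT1, against 24, 7 and 19 in WT2 to WT4. Of the 91 in WT1 with recovered reads, 12 had an uncorrected value of at least 50, and Col4a2 had the highest of them at 408.2. In WT2 to WT4 the highest was 25.7. Anxa2, a calcium-dependent membrane-binding protein, was likewise listed at 1 in WT1, where its uncorrected value was 180.2, with 433.3, 146.0 and 1383 in the others. Within the same limits on mean and floor, of the 100 most variable deposited transcripts 49 were lowest in WT1, and 17 of the same 100 were lowest there before the correction. Of the 100 most variable uncorrected transcripts 50 were also among the 100 most variable deposited ones. With the correction undone, among transcripts whose uncorrected mean reached 100, the largest SDs were those of Ccr4, Ets1, Anxa1, S100a6, Tagln, Ttn, Anxa2, Anxa3, Bmp1 and Ccnd2, at 1.46 to 2.39. In 7 of the 10 (Ets1, Anxa1, Tagln, Anxa2, Anxa3, Bmp1 and Ccnd2) WT4 was the highest library.

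The clones were compared on the recovered reads with limma (voom), 2 libraries against 2. Of 13501 transcripts 0 (0%) passed 0.05 after adjustment, the lowest adjusted value being 0.9995. Before adjustment 467 (3.46%) had a limma p under 0.05, a smaller share than the 0.05 that chance alone would give. The study's criterion, an unadjusted p under 0.05 with a change of at least 1.5-fold, was passed by 298 transcripts (2.21%), 167 higher in clone 1 (1.24%) and 131 higher in clone E3 (0.97%). With 2 libraries a clone, the comparison gave no transcript past the adjusted threshold, so the differences that follow are descriptions. The counts moved when a library was left out, the lone library of a clone then being assumed to vary like the others. Those higher in clone 1 and clone E3 were 327 and 99 without WT1, 573 and 421 without WT2, 462 and 334 without WT3, and 121 and 56 without WT4. In addition, 10 transcripts had a limma adjusted p under 0.05 without WT1. Values of both clones did not overlap in 29.4% of all transcripts, fewer than random values split 2 against 2 would give.

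The largest difference of the clone comparison lay next to the Trim71 gene. Ccr4, a chemokine receptor gene of T cells, had uncorrected values of 15.1 and 20.97 in WT1 and WT4 of clone 1, and 398.1 and 258.9 in WT2 and WT3 of clone E3. Both clone E3 libraries stood far above both clone 1 libraries. The log2 difference, clone 1 minus clone E3, was -4.03 with a standard error of 0.49 (unadjusted limma p 1.18e-04, adjusted p 0.9995). Leaving out each library in turn gave -4.48 to -3.77. Ccr4 occupies 114490316 to 114504916 of chromosome 9 on the minus strand, as Trim71 does, and starts 2216 bases beyond the last exon of Trim71, the exon flanked by loxP sites. No other listed transcript lies between them. Trim71 itself was lower in clone E3, with a log2 difference of 0.53 and a standard error of 0.20 (unadjusted limma p 0.037), which is less than 1.5-fold. The other 12 listed genes within 500000 bases of Trim71, among them Glb1, Crtap and Cnot10, had log2 differences between -0.38 and 0.61, with 0 of them at an unadjusted p under 0.05. Because the deposited values carry the clone correction, Ccr4 had 103.6, 309.6, 170.4 and 109.5 there, and its contrast between clones was smaller. The cause of the difference was not tested.

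Of the transcripts that passed the criterion, 94 higher in clone 1 and 111 higher in clone E3 also reached a mean of 50 without overlap between the clones. The 10 with the largest differences among those higher in clone 1 were Duxbl1, Tagln, A630089N07Rik, Zfp600, 1500009C09Rik, Cdkn1c, Mmp9, Atp6v0c-ps2, Trim12c and Slc5a4b, with a log2 difference of 1.99 for Duxbl1, the largest of them. Cdkn1c (p57) is an imprinted cell cycle inhibitor, Mmp9 a matrix protease and Tagln an actin-binding protein of smooth muscle. In Tagln the difference came mainly from WT4, with 233.0, 130.3, 113.7 and 1076. Zfp600 had 1150, 1016, 229.7 and 1020 and Slc5a4b 150.9, 130.3, 47.35 and 175.6, so there it came mainly from a low WT3. Mmp9 had 53.65, 38.75, 27.88 and 161.2, with WT4 far the highest. By contrast, 1500009C09Rik was even within each clone, with 196.2, 84.54, 63.73 and 205.8. Among the 10 largest in clone E3 were Ccr4, Raver1-fdx1l, Erdr1, Pga5, Hspa1b, Jund, Crlf2, Foxj1 and AA467197. After Ccr4 their differences ran from -2.40 to -1.13. The first of these, Raver1-fdx1l, had 64.55, 133.9, 130.1 and 6.55, so a low WT4 weighed most. Jund is a subunit of the AP-1 transcription factor and Foxj1 the master regulator of motile cilia. Atp6v0c-ps2 is a pseudogene, Hspa1b nearly identical to Hspa1a and Raver1-fdx1l a read-through of neighbouring genes, so their counts are uncertain.

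Among the gene groups, the 4 listed genes of the 2-cell-like state, a rare and transient condition of ES cells, were higher in clone 1 with a median log2 difference of 2.07, against 0.00 over all transcripts. Of these, 3 passed the criterion (Zscan4c, Zscan4d and Gm5662), against 1.24% of all transcripts. Fibroblast markers were also higher in clone 1 in 9 of 9, with a median log2 difference of 0.52. The differences were uneven, from 0.01 for Twist1 and 0.03 for Fn1 to 2.28 for Col1a2. Of these markers 2 (Col1a2 and Tagln) passed the criterion, against 1.24% of all transcripts. Col1a2 had only 19, 0, 13 and 10 reads in WT1 to WT4, and in Tagln the difference came mainly from WT4. In the deposited values Col1a2, Acta2, Twist1 and Tagln were instead lower in clone 1. The uncorrected values of Zscan4c were 57.8 and 79.95 in clone 1 (WT1 and WT4) and 15.9 and 8.85 in clone E3 (WT2 and WT3). Zscan4f had 89.7 and 22.3 against 8.81 and 17.3. Both clone 1 libraries lay above both clone E3 libraries in each of the 4 genes of the 2-cell-like state. Values of the clones did not overlap, in either direction, in 29.4% of all transcripts. Each of the 4 genes had a mean under 50, and the reads were few. Zscan4d had 28, 1, 15 and 21 reads in WT1 to WT4 and Gm5662 had 42, 9, 21 and 25. The Zscan4 genes are near-identical copies, so their reads may be shared and the genes do not vary independently.

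Imprinted genes, which are expressed from 1 parental copy, contributed 4 of 23 higher in clone 1 (H19, Plagl1, Rian and Cdkn1c) and 1 higher in clone E3 (Snrpn), against 1.24% and 0.97% of all transcripts. H19, a long non-coding RNA, had uncorrected values of 2152 and 1301 in clone 1 and 845.4 and 609.4 in clone E3. In the deposited values it was lowest in WT4, at 444.5, so the order of the libraries for H19 turned with the correction. Peg10 was among the most uneven imprinted genes, with 6077, 10425, 6616 and 14916, so each clone held a low and a high library. Of the pluripotency regulators, Klf2, Nr0b1 and Dppa3 passed the criterion, all higher in clone E3, which makes 3 of 31 against 0.97% of all transcripts. Their log2 differences were -0.81, -0.94 and -0.77.

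Ribosomal protein genes shifted together by a small amount. Of 74 tested 4 were higher in clone 1, with a median log2 difference of -0.22, against 0.00 over all transcripts. The criterion was passed by 3 (Rpl34, Rplp1 and Rps26), all higher in clone E3, against 0.97% of all transcripts. Their median deviations were -0.13, 0.05, 0.18 and -0.09 in WT1 to WT4. With the GC and length trend removed these were -0.05, -0.01, 0.13 and -0.06, so the shift narrowed. In the deposited values they were 0.03, -0.07, 0.01 and 0.03. The part of GC content and length in what remained was not tested. A like shift was seen in subunits of the respiratory chain and ATP synthase, where 2 of 17 were higher in clone 1. Their median log2 difference was -0.18, and 0 passed the criterion.

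No chromosome was shifted as a whole between the clones. Median log2 differences of uncorrected values lay between -0.04 (chromosome 8) and 0.07 (chromosome 13) on every chromosome, the X included (0.03). Within clone E3 the X-linked transcripts deviated by 0.08 in WT2 and -0.09 in WT3, more than those of any autosome in these libraries.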

How the data were processed

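Polyadenylated RNA was sequenced without strand marking. The authors demultiplexed reads with CASAVA 1.8, aligned them to mm10 with TopHat2 and Bowtie2 2.2.1, and counted them per RefSeq transcript in Partek 6.6. The deposited signal is the DESeq2-normalized count after a batch correction by the authors, inferred here to follow clone. It was set to at least 1, for transcripts whose mean reached 10 in a group. Whole reads were recovered by undoing normalization and correction, uniquely for 13501 of 13558 transcripts (99.58%). On simulated data 3340 of 3342 came back right. Lengths and positions came from GENCODE M21 (GRCm38) for 13462 transcripts, 526 by an older symbol.

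Levels, SDs of log2(value + 1) and deviations are descriptions over the 4 libraries. Clones were compared on the recovered reads with limma 3.58.1 (voom, Benjamini-Hochberg) in R 4.3.3. From the deposited values a clone effect pooled over both genotypes had been subtracted. In simulated data with independent counts at a fixed dispersion of 0.05, 198 of 200 changed transcripts (log2 change 2) and 15 others were called. The spread of the real libraries was not simulated, so this does not give the power of the real comparison. The GC and length trend was fitted per library with mgcv 1.9.3. Named were Trim71, the highest, most and least variable transcripts, the largest clone differences and members of gene lists; some items that met these rules are not reported here. Members and lists were chosen with earlier results of these data known. Tables were made with Python 3.11.15. Alternatives covered the correction, pseudocount, filters, normalization, depth, GC and length, all 8 libraries and each library left out.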

Additional observations from a re-analysis of the deposited data

Results flagged for a closer look

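Of 104 groups of 4 library values checked, 2 had a library far from the others, where chance alone would give about 5.2. They were Loxl2 and Amot, which had already been picked for their large SD. Loxl2 had 11.87 normalized counts in WT1, against 169.7 to 194.4 in the others. Amot, an angiomotin of the Hippo pathway, had 27.92 in WT1, against 307.8 to 334.3. With the clone correction undone the WT1 values were 100.6 and 170.2, and WT1 no longer passed the critical value in either gene.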

How the results depend on the processing

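Per kb, the top 10, 100 and 1000 transcripts held 5.57%, 20.8% and 54.3% of the summed level. Without each library in turn the shares by count were 3.91% to 3.97%, 15.2% to 15.5% and 47.7% to 48.4%. The median SD was 0.22 with the correction undone, 0.17 for means of at least 50, 0.23 after thinning, and 0.17 to 0.21 without each library. In the clone comparison, transcripts with an unadjusted limma p under 0.05 numbered 146 on deposited values, 299 with all 8 libraries and 177 to 2022 without each library, and those with an adjusted p under 0.05 numbered 0 to 10. Those higher in clone 1 numbered 27 on deposited values, 100 for means of at least 50 and 121 to 573 without each library. Those higher in clone E3 numbered 72 with the GC and length trend removed, 87 with all 8 libraries and 56 to 421 without each library. Among transcripts named for the largest clone differences, deposited values turned the log2 difference of Tagln (-3.27), Cdkn1c (-1.30), Mmp9 (-0.27), Raver1-fdx1l (0.02), Erdr1 (0.33) and Foxj1 (0.17). Members of gene lists turned too, such as Dppa3, with deposited values of 810.4, 507.9, 689.5 and 588.7, and Col1a2, with 3.46, 12.47, 18.22 and 1. The correction took out a clone effect pooled over both genotypes, which need not equal the clone difference within these libraries. The cause of the other changes was not tested. No paired analysis was possible because the clones share no replicate number and no day. Counting error limits transcripts with a mean under 30 most.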
